A study of Homo sapiens with 3 samples.

Results

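*TRIP13* and 8 genes of the spindle assembly checkpoint were followed across the 3 arrays of the series. The members were *TRIP13*, *MAD2L1BP*, *MAD2L1*, *MAD1L1*, *BUB1*, *BUB1B*, *BUB3*, *TTK* and *CDC20*, and their probes were found by the RefSeq accession given to each spot. These 9 genes had 11 probes, out of 22439 genes named by 31104 of the 58201 probes on the array. *TRIP13* and *BUB3* had 2 probes each, and each of the other 7 genes had 1 probe, designed on NM_001003690 for *MAD2L1BP*, NM_002358 for *MAD2L1*, NM_003550 for *MAD1L1*, NM_004336 for *BUB1*, NM_001211 for *BUB1B*, NM_003318 for *TTK* and NM_001255 for *CDC20*. Each of the 11 probes was printed as 1 spot, was well above background on the 3 arrays and was not marked as an outlier.

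Expression was measured in A549 cells, a line derived from a human lung adenocarcinoma, on 1-colour Agilent arrays labelled with Cy3. The mock cells received RNAiMAX transfection reagent only, with no precursor. The other cells received the same reagent with *miR-139-5p*, the guide strand of pre-*miR-139*, or *miR-139-3p*, its passenger strand, each at 10 nM as the methods of the study give for precursors. The time at which RNA for the arrays was harvested was not given in the sources used here, the mock group is not a control of unrelated small RNA, and all groups are this 1 cell line. There was 1 array per group, so no spread between cultures was measured, no test was made, and every difference below is a description of these arrays.

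The spindle assembly checkpoint delays anaphase until every kinetochore, the protein platform on the centromere, is attached to spindle microtubules. TTK, a kinase also called MPS1, starts the signal at unattached kinetochores, where BUB1 and BUB3 dock and MAD1 (*MAD1L1*) helps to convert MAD2 (*MAD2L1*) from an open to a closed form. Closed MAD2, BUBR1 (*BUB1B*) and BUB3 then bind CDC20, the activator of the anaphase-promoting complex, and hold that complex inactive. TRIP13 is an AAA+ ATPase that, with the adapter p31comet (*MAD2L1BP*), opens closed MAD2 again, which both disassembles the inhibitor and keeps a supply of open MAD2.

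The sequences below show which bases each transfected strand uses to choose targets and where the miR-139-3p site lies in *TRIP13*. The mature strands, from the RefSeq annotation of GRCh38.p14, lie on the minus strand of chromosome 11, at chr11:72615066-72615088 for hsa-miR-139-3p and at chr11:72615102-72615124 for hsa-miR-139-5p. Capitals mark the seed, bases 2 to 8 from the 5′ end. The seeds of the strands differ, and so do the DNA letters that pair with them.
hsa-miR-139-3p: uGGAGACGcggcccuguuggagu
hsa-miR-139-5p: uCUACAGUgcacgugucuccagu
The study's supplement prints a stretch of the *TRIP13* mRNA NM_004237 with 386 bases after the stop codon. This printed stretch, which may not be the whole 3′ untranslated region, holds the reverse complement of the miR-139-3p seed, CGTCTCC, 1 time, at bases 73 to 79 past the stop codon. The base after the site is C. The reverse complement of the miR-139-5p seed, ACTGTAG, was found 0 times in the same printed bases. The 30 bases around the site are given with the seed match in capitals.
*TRIP13* site: ccccacacagcCGTCTCCcagggaatccct

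Levels are given as scaled signals, the processed intensity of a spot divided by the 75th percentile of its array. As probes differ in brightness, they compare arrays for 1 probe and not 1 gene with another. A gene's log2 fold change is the mean over its probes. The error beside a single probe is the one Feature Extraction gives for each spot, which was 10% to 12.2% of the signal for these probes, or 0.20 to 0.23 on the log2 scale for a difference of 2 arrays. It covers the reading of a spot and not the difference between cultures. The spots of a probe printed 10 times on an array differed less, with a median SD of 0.05 to 0.06 on the log2 scale.

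*TRIP13* was lower on the *miR-139-3p* array than on both others, by both of its probes. The bright probe, designed on NM_004237, had a scaled signal of 17.1 in mock, 19.8 with the guide strand and 4.18 with the passenger strand. The dim probe, designed on NM_001166260, read 0.763 in mock, 0.586 with the guide strand and 0.165 with the passenger strand. The log2 fold change of *miR-139-3p* against mock was -2.03 ± 0.20 for the bright probe and -2.21 ± 0.23 for the dim probe, so the probes differed by less than their combined error of 0.31. Their mean, -2.12, corresponds to 23.0% of the mock signal, and with normexp background correction it was -1.38. In the log2 values deposited by the authors the bright probe was at -1.87 and the dim probe at -2.52, further apart than the error of 0.31. Some checkpoint genes are expressed mostly in G2 and mitosis. For these, RNA from whole cultures cannot separate fewer cells in those phases from less RNA in each of them. By flow cytometry, the study found a larger share of passenger strand cells in the phases before DNA synthesis. How far that enters the array values was not tested. With *miR-139-5p* the probes went opposite ways, at 0.21 and -0.38. That gap of 0.59 is larger than its error of 0.29, and no direction is given for *TRIP13* in that comparison.

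Set against mock, the passenger strand array showed 7 of the 9 genes below -0.5 on the log2 scale and 0 above 0.5. Over all 14376 genes measured on both arrays, 28.9% were below -0.5 and 23.9% above 0.5. Among the 5815 genes whose mock signal lay within the range of the members, the shares were 36.6% and 13.4%. The balance of all genes depends on the scaling, with 38.7% below and 17.6% above under E1A spike-in scaling, 39.2% and 17.4% without scaling, and 21.9% and 29.9% when the 75th percentile was taken over probes well above background. The median over the 9 genes was -1.50, and over all genes -0.09. Under the main setting the checkpoint genes divided into 7 at -1.15 or lower and a pair, *MAD2L1BP* and *BUB3*, within the threshold. Without scaling and under E1A spike-in scaling *MAD2L1BP*, at -0.59 and -0.58, was below -0.5 too, which made 8 of 9, and with normexp background correction the highest of the 7 was *MAD1L1* at -0.64.

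**Figure D1:**
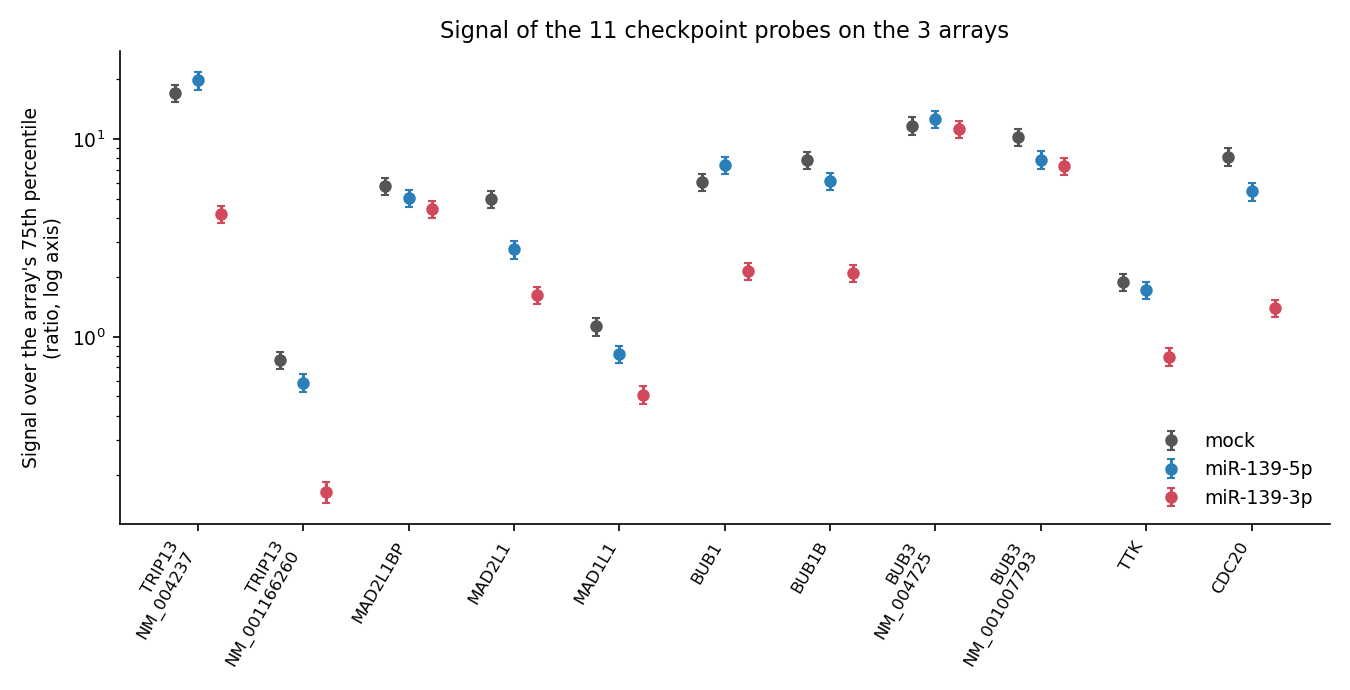
Scaled signal (intensity divided by the 75th percentile of the array, log axis) of the 11 probes on the 3 arrays. Points are single spots on 1 array per group and bars are the error given by Feature Extraction. On this scale the miR-139-3p points lie lowest for every probe, with a narrow gap for both *BUB3* probes and *MAD2L1BP*.

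The adapter and its substrate differed from each other. *MAD2L1BP*, which brings MAD2 to TRIP13, read 5.78 in mock, 5.02 with the guide strand and 4.43 with the passenger strand. The passenger strand signal was thus 76.7% of mock, or -0.38 ± 0.20 on the log2 scale. The log2 fold change of *TRIP13* minus that of its adapter was -1.74. This difference does not depend on a constant scaling between arrays, but it was -0.96 with normexp background correction. *MAD2L1*, the substrate of TRIP13, read 4.98 in mock, 2.76 with the guide strand and 1.62 with the passenger strand. The 3 arrays thus stand in that order for *MAD2L1*, the last at 32.6% of mock, or -1.62 ± 0.20 on the log2 scale. *MAD1L1*, the kinetochore template for closed MAD2, read 1.13 in mock, 0.820 with the guide strand and 0.508 with the passenger strand. It had the same order of arrays as *MAD2L1*, as did *MAD2L1BP*, *BUB1B*, *TTK* and *CDC20*. With *miR-139-3p* *MAD1L1* was at -1.15 ± 0.21 on the log2 scale.

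The kinases and BUBR1 were lower with *miR-139-3p* as well. *TTK*, the kinase that starts the signal, read 1.89 in mock, 1.73 with the guide strand and 0.794 with the passenger strand, the last at -1.25 ± 0.21 against mock on the log2 scale. *BUB1*, a kinase that recruits further checkpoint proteins, read 6.07 in mock, 7.41 with the guide strand and 2.14 with the passenger strand. It was the 1 member whose gene value was higher with the guide strand than in mock in the mean over probes, although the bright probes of *TRIP13*, at 0.21, and *BUB3*, at 0.11, were higher too and *TRIP13* was at 0.04 under E1A spike-in scaling, and with the passenger strand it was at -1.50 ± 0.20 on the log2 scale. *BUB1B*, which encodes the BUBR1 subunit of the inhibitor, read 7.81 in mock, 6.15 with the guide strand and 2.10 with the passenger strand. At -1.90 ± 0.20 with *miR-139-3p*, or 26.9% of mock, it was next to *TRIP13* in the order of the members.

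*BUB3*, the WD-repeat partner of both BUB1 and BUBR1, stood apart from them. Its bright probe, designed on NM_004725, read 11.7 in mock, 12.6 with the guide strand and 11.3 with the passenger strand. Its other probe, designed on NM_001007793, read 10.2 in mock, 7.86 with the guide strand and 7.28 with the passenger strand. Against mock the passenger strand values were -0.05 and -0.49 on the log2 scale, a gap of 0.44 against an error of 0.29, and their mean was -0.27, or 82.8% of mock. In the same comparison the log2 fold change of *BUB1* minus that of *BUB3* was -1.23, and that of *BUB1B* minus that of *BUB3* was -1.62. In the log2 values deposited by the authors the bright *BUB3* probe was at 0.15 and the other at -0.30 with *miR-139-3p* against mock. The direction of the bright probe thus depends on the scaling. The deposited files do not say which transcript forms the 2 probes of *BUB3*, or those of *TRIP13*, share.

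*CDC20*, the target that the checkpoint holds back, had the lowest log2 fold change of the 9 genes with *miR-139-3p* against mock. It read 8.15 in mock, 5.43 with the guide strand and 1.40 with the passenger strand, so the last was 17.2% of mock, or -2.54 ± 0.20 on the log2 scale. Ranked from the lowest of the 14376 genes, *CDC20* was at position 64 and *TRIP13* at position 171. *CDC20* and *TRIP13* differed by 0.42, against a combined error of 0.26, by 0.23 after quantile normalization and by 0.77 with normexp background correction. Below them, in the order *TRIP13*, *BUB1B*, *MAD2L1*, *BUB1*, *TTK* and *MAD1L1*, no neighbours differed by more than the combined error of their spots. *MAD1L1* and *MAD2L1BP* differed by 0.77, the widest gap between neighbours in this order, and *MAD2L1BP* and *BUB3* by 0.11. The order among the middle genes is therefore not settled by these arrays. With normexp background correction *MAD1L1* was at -0.64, *TTK* at -0.82 and *MAD2L1BP* at -0.42, and the gap between *MAD1L1* and *MAD2L1BP* was then 0.22, within the error.

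Set against its partners one by one, *TRIP13* had a log2 fold change with *miR-139-3p* that was lower than that of 7 of the 8. The difference was -1.85 against *BUB3* and -1.74 against *MAD2L1BP*, the pair within the threshold, then -0.97 against *MAD1L1*, -0.87 against *TTK* and -0.62 against *BUB1*. It was -0.50 against its substrate *MAD2L1*, -0.23 against *BUB1B* and 0.42 against *CDC20*. Relative to the median of the partners, -1.38, *TRIP13* was at -0.74, and with normexp background correction at -0.34. Under that correction the order turned for *BUB1B*, against which *TRIP13* was at 0.25, and the difference against *CDC20* was 0.77. The other differences were -0.03 against *MAD2L1*, -0.12 against *BUB1*, -0.56 against *TTK*, -0.73 against *MAD1L1*, -0.96 against *MAD2L1BP* and -1.10 against *BUB3*.

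**Figure D2:**
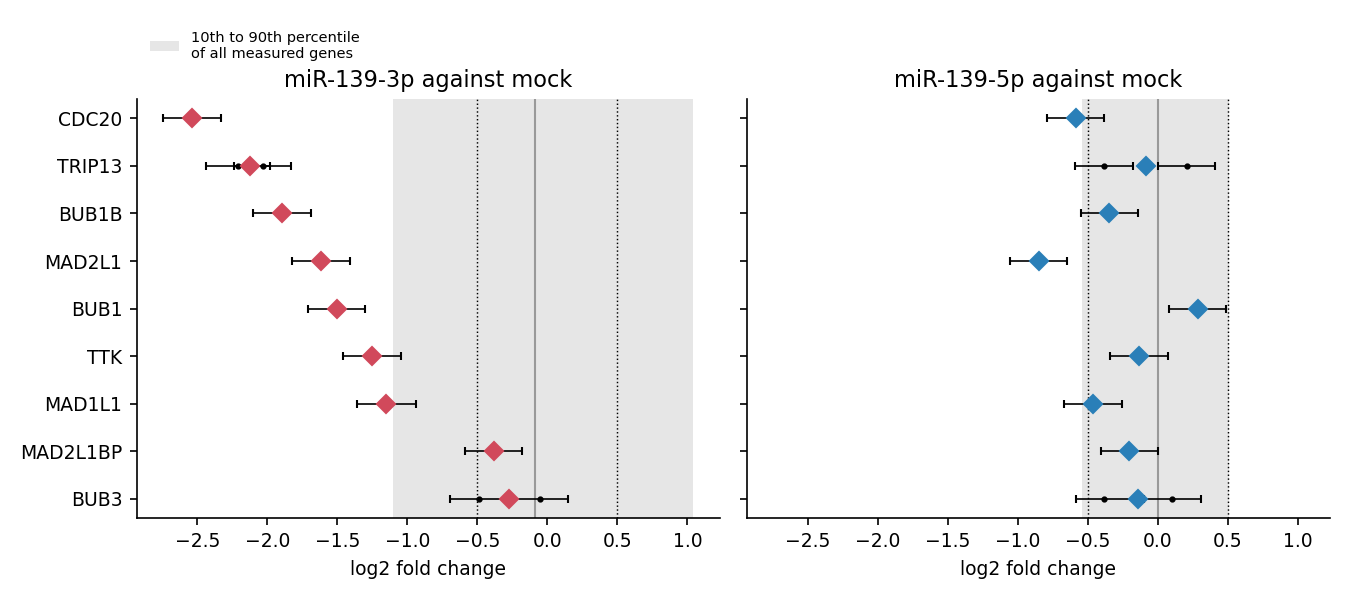
Log2 fold change against mock for miR-139-3p (left) and miR-139-5p (right). Diamonds are gene values, small points are single probes with the error given by Feature Extraction, dotted lines are at -0.5 and 0.5, the grey band is the 10th to 90th percentile of all measured genes and the grey line their median. The 7 genes from *CDC20* to *MAD1L1* lie left of the band with miR-139-3p, and *MAD2L1* and *CDC20* lie left of it with miR-139-5p.

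The *miR-139-5p* array differed from mock in fewer of these genes. In all, 2 of the 9, *MAD2L1* at -0.85 ± 0.20 and *CDC20* at -0.59 ± 0.20, were below -0.5, and 0 were above 0.5, whereas 11.5% of 14311 measured genes were below -0.5 and 10.2% above 0.5, and within the members' range of mock signal 10.5% and 8.85%. With E1A spike-in scaling 7.32% of all genes were below and 15.9% above, and without scaling 14.9% and 7.66%. Under E1A spike-in scaling *CDC20* was at -0.46, which left 1 of the 9 genes below -0.5, and without scaling *MAD1L1* was at -0.53, which made 3. *MAD2L1* was at 55.5% of mock and *CDC20* at 66.6%. *MAD1L1* at -0.46 and *BUB1B* at -0.35 were within the threshold, *MAD2L1BP* was at -0.20 and *TTK* at -0.13, and *BUB1* was at 0.29 ± 0.20. *BUB3* was at -0.14, a mean of probes at 0.11 and -0.38 that went opposite ways as those of *TRIP13* did. The median over the 9 genes was -0.20, and 0.00 over all genes. Most neighbours in this order, 7 of 8 pairs, differed by less than their combined error.

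The comparisons with mock share the mock array, so the transfected arrays were also set against each other. Relative to the guide strand, the passenger strand array had 7 of the 9 genes below -0.5 and 0 above 0.5, compared with 29.3% and 23.3% of 14021 measured genes. Within the members' range of mock signal the shares were 35.9% and 14.5%. The count of 7 depends on the setting. With normexp background correction *MAD1L1* was at -0.643 for the passenger strand and -0.245 for the guide strand against mock, less than 0.5 apart. When the 75th percentile was taken over probes well above background it was at -0.980 and -0.483, also less than 0.5 apart. Under E1A spike-in scaling *MAD2L1BP* was at -0.583 and -0.082, just over 0.5 apart. Under the main setting *TRIP13* at -2.04, *CDC20* at -1.95, *BUB1* at -1.79 and *BUB1B* at -1.55 were the lowest. The *TRIP13* probes differed here by more than their error of 0.31, at -2.24 for the bright and -1.83 for the dim probe. The place of *TRIP13* against *CDC20* thus depends on the probe, and also on the background correction. *TTK* followed at -1.12, *MAD2L1* at -0.77 and *MAD1L1* at -0.69, and *MAD2L1BP* at -0.18 and *BUB3* at -0.13 were within the threshold. *MAD2L1*, which was below mock on both transfected arrays, was nearer to 0 than against mock, as were all other members except *BUB1*. *BUB1B* and *TTK* differed by 0.43, *TTK* and *MAD2L1* by 0.35 and *MAD1L1* and *MAD2L1BP* by 0.51, each more than their combined error of 0.29. With normexp background correction *TTK* was at -0.820 for the passenger strand and -0.228 for the guide strand, each against mock. *MAD2L1* was at -1.348 and -0.677, so between the transfected arrays the order of *TTK* and *MAD2L1* turned. That correction also brought *MAD1L1* and *MAD2L1BP* closer together.

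**Figure D3:**
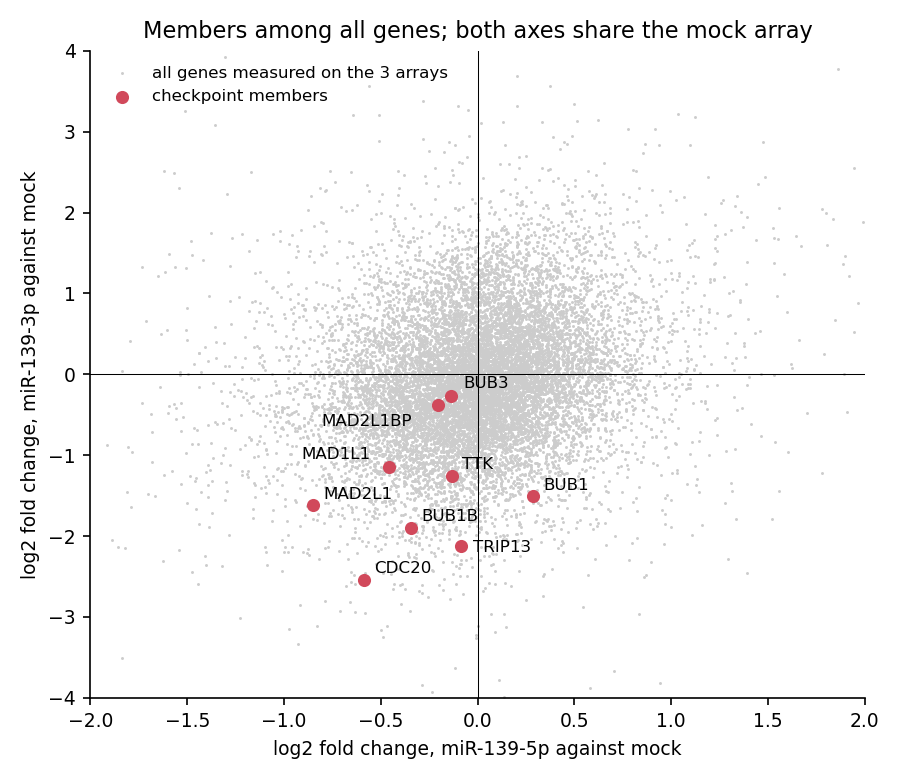
Log2 fold change against mock with miR-139-5p (horizontal) and miR-139-3p (vertical) for the genes measured in both comparisons, in grey, and the 9 checkpoint genes in red. Of 13909 genes, 34 lie outside the axes. *TRIP13* and *BUB1* lie low near or right of the vertical line, *MAD2L1* and *CDC20* lie low and to the left, and *BUB3* and *MAD2L1BP* lie in the centre of the cloud. Both axes share the mock array.

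By the distance between these pairs of log2 fold changes over the 3 arrays, the genes most like *TRIP13* were *RUNX3* at -2.12 and -0.09, *EXO1* at -2.15 and -0.11, *SGCB* at -2.14 and 0.02, *TAGLN2* at -2.03 and -0.15 and *SGK1* at -2.23 and -0.12, each given with *miR-139-3p* first and *miR-139-5p* second. Their distances from *TRIP13* ran from 0.0069 to 0.11, among 13901 genes. The nearest of its checkpoint partners was *BUB1B*, at a distance of 0.34 and position 130. With 3 arrays, and with the *miR-139-5p* value of *TRIP13* depending on the probe, this is a description of nearness only.

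The wider checkpoint network was read from 4 lists of genes. Of 20 kinetochore signalling genes, 18 were measured against mock with *miR-139-3p*. In this list 16 genes were below -0.5, 0 were above 0.5, and the median was -1.53, beside 28.9%, 23.9% and -0.09 over all genes. The lowest were *SPC24*, a subunit of the NDC80 complex that binds microtubules, at -2.26 and *SGO1*, the protector of centromeric cohesin, at -2.20. The highest were *NSL1*, a subunit of the MIS12 complex, at -0.02 and *ZW10*, of the complex that brings dynein and MAD1 to kinetochores, at -0.24. With *miR-139-5p*, 0 of the 18 were below -0.5 and 2 were above 0.5, *SPDL1* at 0.57 and *NUF2* at 0.55, beside 11.5% and 10.2% of all genes, and the median was 0.03. *PLK1* was not analysed here, and *MIS12* was left out because its spot was marked as an outlier in mock and with the guide strand.

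In the machinery that the checkpoint restrains, genes past the threshold stood beside others near 0. Of 19 genes of the anaphase-promoting complex and its ubiquitin enzymes, 9, or 47.4%, were below -0.5 with *miR-139-3p*, 0 were above 0.5, and the median was -0.50, where 28.9% of all genes were below -0.5. *UBE2S*, the enzyme that extends ubiquitin chains for this complex, was lowest at -2.20, followed by *ANAPC15*, a subunit needed for release of the checkpoint complex, at -1.75. The subunits *ANAPC16* at 0.49 and *CDC27* at 0.07 were the highest. With *miR-139-5p*, 1 of the 19, the ubiquitin-conjugating enzyme gene *UBE2D1* at -0.68, was below -0.5, 0 were above 0.5, and the median was 0.13, where 11.5% of all genes were below -0.5 and 10.2% above 0.5. Among the substrates and cohesin genes of anaphase, 8 of 10 measured were below -0.5 with *miR-139-3p*, beside the same 28.9% of all genes, with a median of -1.29. These included the cyclin A gene *CCNA2* at -1.94 and *PTTG1*, which encodes securin, the inhibitor of separase, at -1.54. The cohesin subunit genes *STAG1* at 0.55 and *SMC1A* at -0.32 were the highest, *STAG1* being the 1 gene above 0.5. *SMC3* was left out of this comparison because its spot was marked as an outlier with *miR-139-3p*. With *miR-139-5p*, 0 of the 11 were below -0.5 and 1, *STAG2* at 0.51, was above 0.5, beside 11.5% and 10.2% of all genes, with a median of 0.05.

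TRIP13 also acts on other proteins with the HORMA fold that MAD2 carries, among them HORMAD1 and REV7. A list of 11 genes covered proteins with this fold and their partners, and action of TRIP13 on each of them is not implied. Of the 11 genes 8 were measured, and with *miR-139-3p* 3 of them were below -0.5, *ATG13* at -1.39, *MAD2L2* at -1.38 and *ATG101* at -1.12, while 1 was above 0.5. *MAD2L2* encodes REV7, the HORMA subunit of shieldin and of DNA polymerase zeta, and *ATG13* and *ATG101* encode a pair of HORMA proteins that start autophagy. The gene above 0.5 was *REV3L*, the catalytic subunit of polymerase zeta and a partner of REV7, at 1.24, and the meiotic gene *HORMAD1* was at 0.29. The median of the 8 was -0.32, and 37.5% were below -0.5, beside 28.9% below -0.5 and 23.9% above 0.5 over all genes. With *miR-139-5p*, *ATG13* at -0.55 was below -0.5 and *REV3L* at 0.66 above 0.5, 1 of 8 each beside 11.5% and 10.2% of all genes, and the median was 0.03. *HORMAD2*, *SHLD1* and *SHLD3* had no value. *SPDL1*, *NUF2*, *UBE2D1*, *STAG2* and *ATG101* were chosen after their values were seen, to name the members of small counts.

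**Figure D4:**
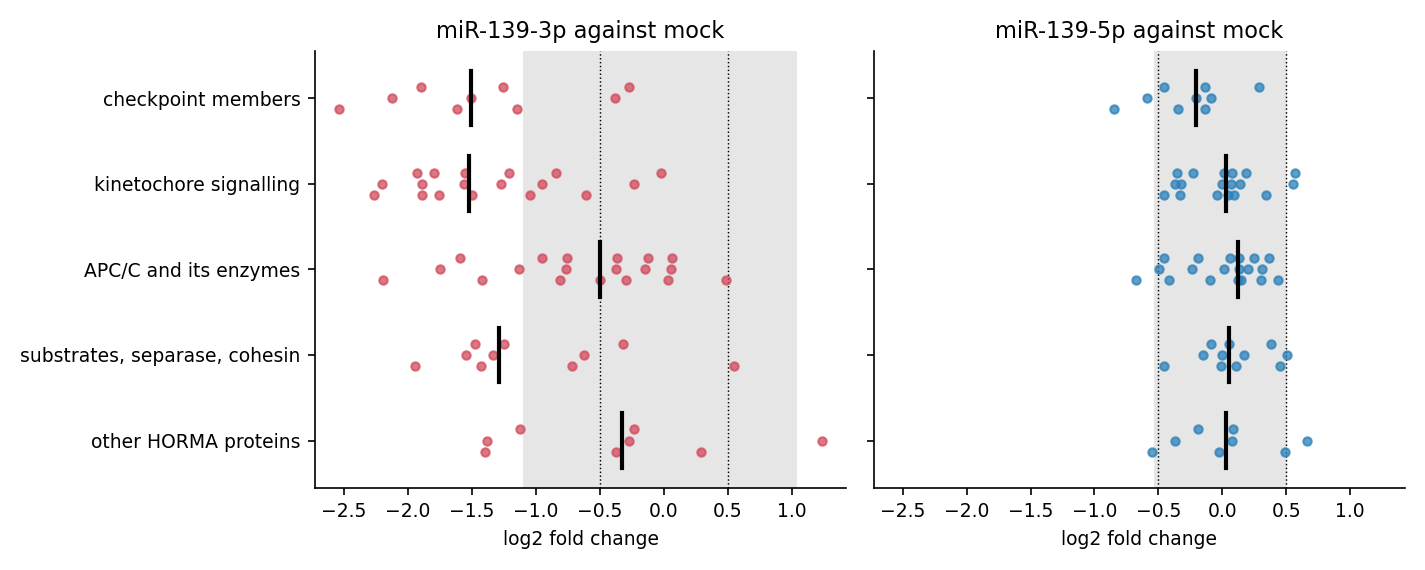
Log2 fold change against mock with miR-139-3p (left) and miR-139-5p (right) for the 9 checkpoint genes and the 4 lists. Points are genes with a vertical offset for legibility, black bars are medians, dotted lines are at -0.5 and 0.5, and the grey band is the 10th to 90th percentile of all measured genes. With miR-139-3p the medians of the checkpoint genes (-1.50), the kinetochore list (-1.53) and the substrates (-1.29) lie left of the band, and with miR-139-5p the medians of the 5 groups lie within it.

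Many mitotic genes are switched on in G2 through a short promoter sequence, the cell cycle genes homology region (CHR), bound by the DREAM and MuvB complexes. The letters TTTGAA were searched on both strands in the 300 bases from 250 before to 50 after the start of each gene, from RefSeq and GRCh38.p14. They occurred in 3 of the 7 members with a promoter sequence, *MAD2L1*, *BUB1B* and *CDC20*, and in 15.4% of 27305 promoters of this length. *TRIP13*, *MAD2L1BP*, *MAD1L1* and *BUB1* had no match in this window, and the table held no entry for *BUB3* or *TTK*. The E2F letters TTTCCCGC and TTTGGCGC, which do not overlap TTTGAA, were found in 0 of the 7, and in 1.66% and 0.659% of all promoters. The 3 genes with a match were all below -0.5 with *miR-139-3p*, as were 3 of the 4 without. The 30 bases around each match are given on the strand of the gene, with the match in capitals, which reads TTCAAA where it lies on the opposite strand.
*MAD2L1*, chr4:120066807-120066836, minus strand: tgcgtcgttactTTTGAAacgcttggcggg
*BUB1B*, chr15:40161034-40161063, plus strand: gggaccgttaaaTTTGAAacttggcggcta
*CDC20*, chr1:43358904-43358933, plus strand: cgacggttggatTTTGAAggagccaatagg
*CDC20*, second match, chr1:43358791-43358820, plus strand: cctctcgtacccTTCAAAtcgcgctccgcc
In *BUB1B* and *CDC20* the match in the gene's direction began 23 and 65 bases before the annotated start, and in *MAD2L1* it began at base 25 of the transcript.

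Several facts of the arrays stand beside these values. The mock and guide strand arrays shared slide 1 and the passenger strand was on slide 2, so slide and transfection cannot be told apart for *miR-139-3p*. Over 7 E1A spike-in probes, the scaled log2 difference from mock had a median of 0.24 and ran from -0.07 to 0.35 with *miR-139-3p*, and it ran from -0.17 to -0.06 with *miR-139-5p*. The 75th percentile of the signal was 93.6 in mock, 88.9 with the guide strand and 81.0 with the passenger strand, and 48.1% to 53.1% of the spots other than controls were well above background. *GAPDH* was at -0.55 with *miR-139-3p*, and relative to it *TRIP13* was at -1.57. All 7 A549 marker genes had probes well above background on each array. The scaled signals of their brightest probes summed to 1847 in mock, 1593 with the guide strand and 1054 with the passenger strand, totals carried by *KRT8*, *KRT18*, *AKR1B10* and *AKR1C1*, each lower with the passenger strand than in mock. *EPCAM*, at 2.33 in mock and 4.56 with the passenger strand, *CDH1*, at 3.75 and 4.82, and *NQO1*, at 8.40 and 8.81, were higher. Of 3 markers for each other cell type, those of leukocytes were detected for 2 in mock, 2 with the guide strand and 3 with the passenger strand, those of endothelial cells for 2, 1 and 2, and those of fibroblasts for 2 on each array. *PTPRC*, *CD14*, *CDH5*, *COL1A1* and *PDGFRB* were well above background on every array and *PECAM1* and *DCN* on none. In the same order of arrays the sums were 3.27, 3.56 and 1.11 for leukocytes, 0.241, 0.211 and 0.462 for endothelial cells and 0.514, 1.23 and 0.441 for fibroblasts, and as probes differ in brightness these are not compared with the A549 sums. The leukocyte sums were carried by *CD14*, at 3.12 in mock and 0.791 with the passenger strand, while *PTPRC* and *CD3E* were higher with the passenger strand than in mock. The fibroblast sums were carried by *COL1A1*, at 0.428 in mock and 0.280 with the passenger strand, while *PDGFRB* was higher. How far the slide, the spike-in difference, the *GAPDH* difference or the marker levels enter the results was not tested.

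**Figure D5:**
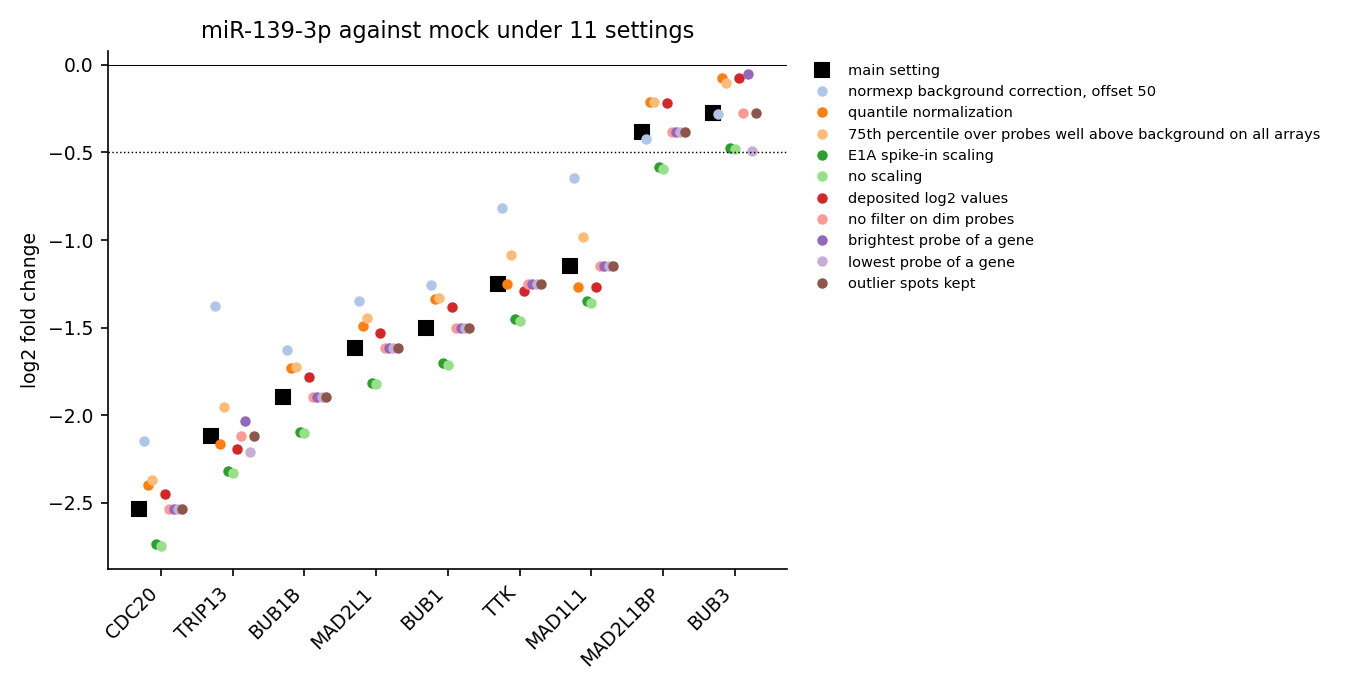
Log2 fold change of the 9 genes with miR-139-3p against mock under the main setting (black squares) and 10 other settings (coloured points), with a dotted line at -0.5. The 7 genes from *CDC20* to *MAD1L1* lie below the line in every setting plotted, *MAD2L1BP* crosses it without scaling and under E1A spike-in scaling, and *BUB3* stays above it.

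The other settings changed the side of the threshold for 1 of the 9 genes with *miR-139-3p*. *TRIP13*, *CDC20*, *BUB1B*, *MAD2L1*, *BUB1*, *TTK* and *MAD1L1* were below -0.5 in all 10 alternatives, and *BUB3* was between -0.49 and -0.05. Without scaling *MAD2L1BP* was at -0.59, and under E1A spike-in scaling at -0.58, settings that place every gene lower by a constant (the median of all genes shifts by -0.21 and -0.20), and the count of members below -0.5 was then 8, beside 39.2% and 38.7% of all genes.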

How the data were processed

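Total RNA of A549 cells was hybridised to 3 Agilent 1-colour arrays, 1 per group. The deposited values are spot intensities from Feature Extraction 12.1.1.1, per the file headers background-subtracted and not normalized between arrays, on a design annotated on hg19. A value table was also deposited by the authors, in log2 units. Over 58201 probes its values correlated with quantile-normalized log2 signals at r = 1.00 on each array and had a median of 2.21, so they are on that scale, and they were used as an alternative.

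Each processed signal was divided by the 75th percentile of its array, taken over spots other than controls, and log2 was taken. Between 614 and 1526 spots per array, marked as outliers by Feature Extraction, were dropped. Detection was set per probe, with at least 50% of its spots well above background. Genes were named by unversioned RefSeq accession through GRCh38.p14, and a gene's log2 fold change is the mean over probes detected in both groups. A value past 0.5 in either direction was counted. With 1 array per group, the number of arrays limits the precision and no test was made. The members and lists were chosen with earlier results of these data known, and named genes were the members, the 2 lowest and 2 highest of each list, the 5 nearest to *TRIP13* and *GAPDH*. The 11 alternatives changed background correction, scaling, source, filter, probe, outliers or threshold. The steps were tested on simulated data. Python 3.11.15, numpy 2.4.6, pandas 2.3.3, matplotlib 3.10.9, R 4.3.3 and limma 3.58.1 were used.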

Additional observations from a re-analysis of the deposited data

How the results depend on the processing

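No paired analysis was possible because each group had 1 array and nothing was tested. Shifts of a single value were read against the typical SD among probes of the same gene, a median of 0.28 for the passenger strand comparison and 0.15 for the guide strand. With normexp background correction, run on median spot signals with an offset of 50, *TRIP13* was at -1.38 with *miR-139-3p* and its distance from the median of its 8 partners was -0.34 in place of -0.74. The offset draws fold changes of dim probes toward 0 by construction. With *miR-139-5p*, *TRIP13* was at 0.21 by its brightest probe and -0.38 by its lowest. The number of members past 0.5 with *miR-139-5p* was 1 with E1A spike-in scaling, where *CDC20* was at -0.46, and 0 with a threshold of 1. It was 3 without scaling, where *MAD1L1* was at -0.53. For the passenger strand the number was 7 with a threshold of 1. The share of all genes past 1 was not computed. Their 10th and 90th percentiles were -1.10 and 1.04 for the passenger strand, so more than 10% lay past 1 on either side. For the guide strand these percentiles were -0.54 and 0.51, so less than 10% did. Of 160 values for the partners, 153 shifted by less than this SD and 7 by more, with no called value changing sign. Without outlier removal or without the filter on dim probes no member changed, since none had a spot of either kind. Each member rests on 1 or 2 spots per array.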
